A study of Homo sapiens with 97 samples.

Results

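Of 129 AsiSI cut sites bound by MRE11, 33 lay in sequence that replicates in the later part of S phase in U2OS cells, and these 33 sites and the replication timing around them are described here. A site was taken when its midpoint fell in a mid-late interval (30 sites) or in a late interval (3 sites) of the deposited U2OS timing lists. They made up 25.6% of the list (exact Clopper-Pearson interval 18.3 to 34.0%), and the other 96 sites lay in early or mid-early intervals. Of all listed timing sequence, 25.9% was mid-late and 24.9% was late. Each site was followed for 500 kb on both sides. These windows overlapped 364 of the 22719 nuclear timing intervals: 32 early, 144 mid-early, 155 mid-late and 33 late. The class at the site itself was fixed by this choice and is not a result.

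The break list came from HCT116 cells, a colorectal carcinoma line, that lacked LIG4, a ligase of end joining. By their name (AID-RAD21) the cohesin subunit RAD21 bore a degron that auxin triggers, and no auxin treatment is named for them. They were given 4-hydroxytamoxifen (4OHT, 300 nM for 4 h) to release the restriction enzyme AsiSI onto DNA (2 MRE11 chromatin immunoprecipitation samples). The timing lists came from untreated, wild-type U2OS osteosarcoma cells, under 1 sample of G1 phase DNA and 1 of S phase DNA, both named as merged. The early and mid-early lists are filed under the G1 sample and the mid-late and late lists under the S sample, for a reason not stated, so the division used here coincides with the sample of filing. Peaks of nascent strand sequencing (NS-seq) came from AsiSI-U2OS cells. That list is named as merged and is filed under an untreated input sample, and the libraries it merges are not stated. Whether its peaks come from 4OHT-treated cells, control cells or both, and what part input had in them, is therefore not known, and this limits every peak count below. The breaks and the timing were therefore measured in different cell lines, and the timing of HCT116 cells was not analysed here. No list separates samples, so there is no replicate error and no test between groups. The spread given below is over sites, which are not replicates, and intervals for shares cover counting error only.

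Replication timing is the order in which stretches of a chromosome are copied in S phase. Clusters of origins that fire early form peaks in a timing profile, sequence copied last forms troughs, and forks travelling from early to late sequence form the ramps between them. Late sequence is typically poor in genes and origins. MRE11 is the nuclease of the MRE11-RAD50-NBS1 complex, which binds broken DNA ends and starts their resection. A chromatin site with MRE11 bound after AsiSI release is thus commonly read as a cut site. In NS-seq, short new strands protected by an RNA primer mark the places where replication began.

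The 33 sites were spread over 16 chromosomes. Chromosome 1 held 6 of them, chromosomes 4, 6 and X held 4 each, and chromosomes 11, 16 and 20 held 2 each. The later-replicating share of a chromosome's sites varied: 4 of 5 sites on chromosome 4 and 4 of 7 on chromosome X, but 1 of 12 on chromosome 17 and 0 of 8 on chromosome 19. The later-replicating share of each chromosome's sequence was not set beside these counts. Whether the variation is particular to the sites is therefore not known. The sites stood alone. None had another listed site within 500 kb, the closest other site was 517 kb away, and the closest pair among the 33 was 2519 kb apart, so no windows overlapped. Sites are numbered below by their order along each chromosome, with hg19 coordinates.

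**Figure D1:**
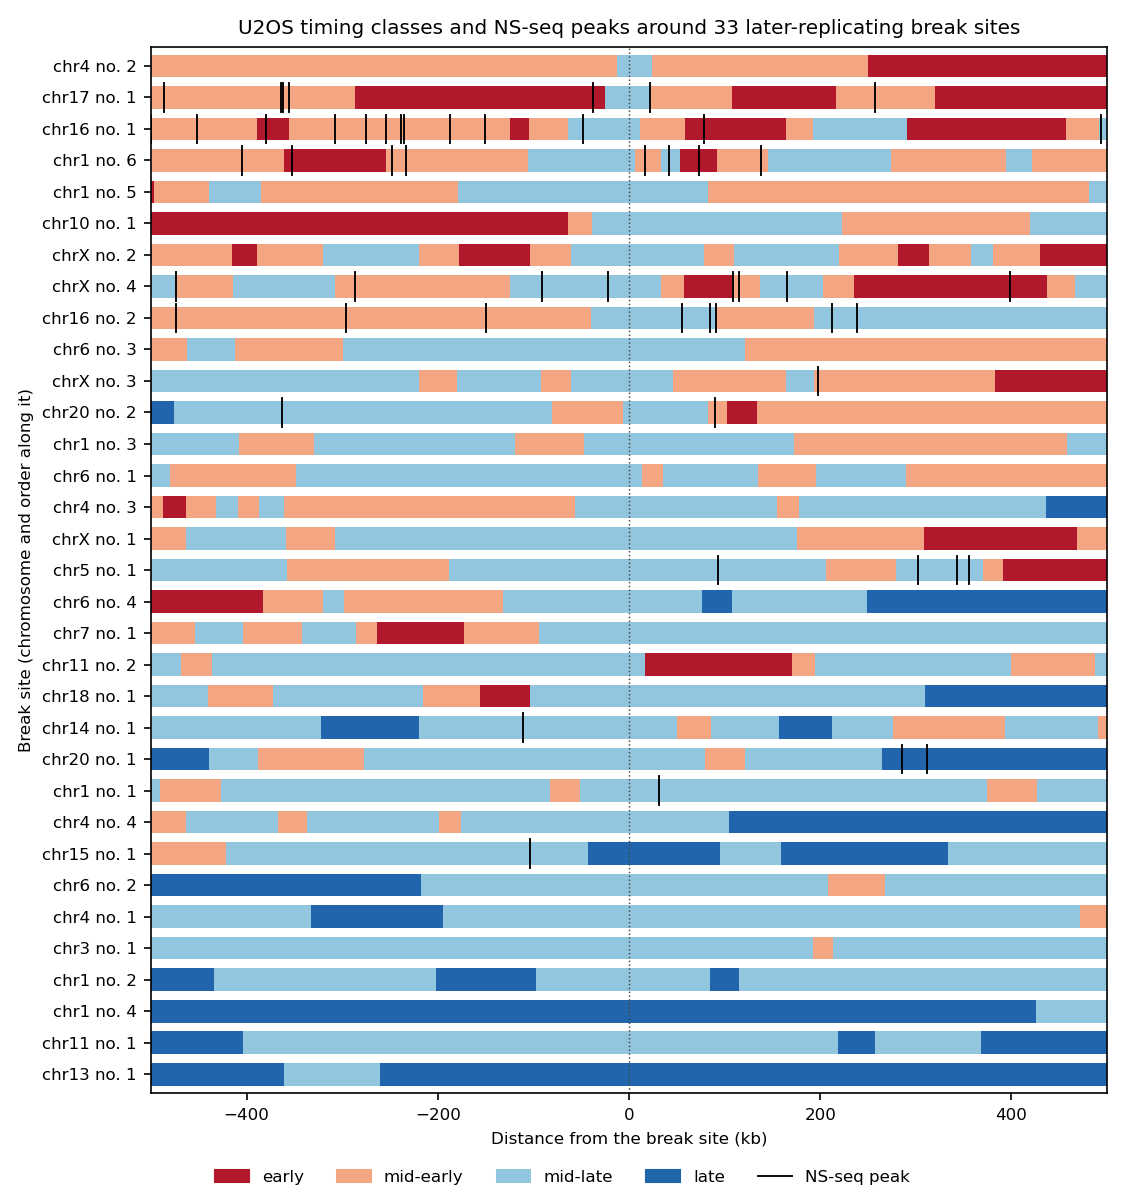
Each row is 1 of the 33 sites with 500 kb on both sides (distance in kb on the x axis). Colours give the U2OS timing class, from early (dark red) to late (dark blue), and black ticks are NS-seq peaks. Rows run from the window with the most early plus mid-early sequence (96.3%) to those with 0%. Late sequence appears mainly in the lower rows, and most ticks sit in a few upper rows.

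The surroundings of these sites ranged from mostly early or mid-early to wholly mid-late or late. Of the 33 windows, 29 held mid-early sequence, 17 held early sequence and 14 held late sequence. Only 4 windows held both early and late sequence, which were the 4 windows with all classes. A further 19 windows held 3 classes and 10 held 2. On average the windows were 9.15% early, 27.3% mid-early, 50.1% mid-late and 13.4% late (SD over sites 13.8, 21.0, 23.9 and 23.5 percentage points). The joined share of early and mid-early sequence had a median of 37.3%, from 0% to 96.3%, exceeded 50% around 10 sites and was under 10% around 9. The spread over sites was wide enough that the 33 windows shared no single pattern.

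Later-replicating sites with the most early or mid-early surroundings sat in narrow mid-late pockets, which follows largely from choosing them by that share. The window of chr4 no. 2 (76862193 to 76862200) was 96.3% early or mid-early. The site lay in a mid-late domain of 37.0 kb, the shortest of all 33, between mid-early domains of 628 and 226 kb. Chr17 no. 1 (18057099 to 18057106) had 95.2% early or mid-early sequence around a mid-late domain of 48.1 kb, with an early domain of 261 kb on its left. Chr16 no. 1 (1543500 to 1543507) had 82.0%, around a mid-late domain of 74.4 kb. At these 3 sites, 3.70, 4.81 and 18.0% of the megabase around the cut was mid-late, and none of it was late. These shares are what the early and mid-early shares leave.

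At the other end were 4 windows with 0% early or mid-early sequence. The windows of chr1 no. 4 (192514431 to 192514438) and chr13 no. 1 (105238551 to 105238558) were 92.6% and 89.9% late. Those of chr1 no. 2 (89458596 to 89458603) and chr11 no. 1 (100558311 to 100558318) were 80.0% and 73.3% mid-late, with late sequence as the rest.

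The 3 late sites differed among themselves. Chr1 no. 4 lay in the largest domain of any site, 5078 kb of late sequence from 187862301 to 192940500, and 426 kb inside its nearer edge. Chr13 no. 1 lay in a late domain of 1306 kb, 260 kb from its edge. Chr15 no. 1 (92396938 to 92396945) lay in a late domain of only 138 kb, and its window was 60.8% mid-late, 31.4% late and 7.81% mid-early. Over all late sequence, the median length of the domain was 1417 kb, above those of chr13 no. 1 and chr15 no. 1 and below that of chr1 no. 4.

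Earlier sequence took up more of the outer steps than of the nearest one around mid-late sites. In the first 50 kb, 10.8 ± 18.0% of the sequence around mid-late sites was early or mid-early (mean and SD over 30 sites). Over all mid-late sequence of the genome, every 100 bp of which was measured in the same way, the value was 7.65%. From 50 to 100 kb the share was 31.3 ± 33.0% around the sites, against 18.7% around all mid-late sequence. It was 40.2 ± 32.0% at 150 to 200 kb, against 25.7%, and 51.0 ± 36.9% at 350 to 400 kb, against 31.8%. In the outermost step, 450 to 500 kb, it was 48.2 ± 35.0%, against 34.3%. The mean was higher around the sites in all of these steps, by less than the SD over sites in each.

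Mid-early sequence had a higher mean share around the sites in each of the 10 steps, and early sequence in 9 of the 10. Mid-early sequence made up 8.89% of the first 50 kb, 22.7% at 50 to 100 kb and 34.7% at 450 to 500 kb around mid-late sites, against 7.26, 16.2 and 22.3% around all mid-late sequence. Early sequence was 1.93, 8.62 and 13.4% in the same steps around the sites, against 0.385, 2.50 and 12.0%. At 200 to 250 kb early sequence was lower around the sites, 6.04% against 6.64%. At 100 to 150 kb early sequence was 13.1 ± 25.3% around the sites, against 4.62%, and 8 of 30 sites had any of it there.

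Late sequence was scarce near mid-late sites. It made up 0% of the first 50 kb at all 30 sites, against 5.39% around all mid-late sequence. At 50 to 100 kb the share was 1.38 ± 5.28% (2 of 30 sites had any), against 12.8%, and at 200 to 250 kb it was 6.92 ± 15.9% (7 of 30 sites), against 18.2%. At 450 to 500 kb it was 17.5 ± 30.2% around the sites, against 22.3%. Over the whole window, late sequence averaged 7.66 ± 12.1% around mid-late sites and 17.4% around all mid-late sequence. With ranks from 1 (early) to 4 (late), the mean rank of the window was 2.58 ± 0.47 around mid-late sites and 2.84 around all mid-late sequence.

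**Figure D2:**
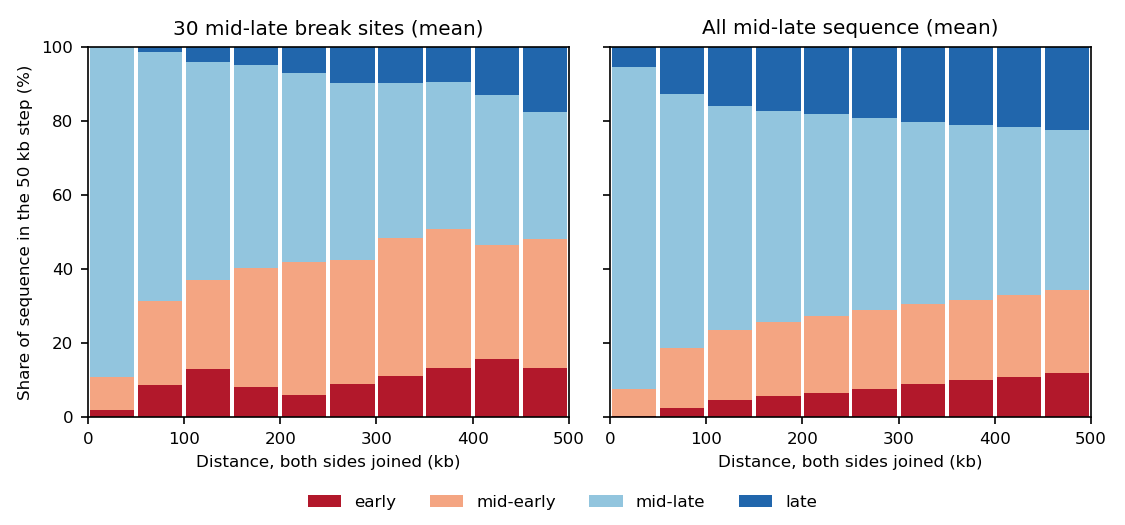
Mean share of each timing class (%, y axis) in 50 kb steps of distance with both sides joined (kb, x axis), for the 30 mid-late break sites (left) and for every 100 bp of mid-late sequence (right). Late sequence is 0% in the nearest step at the sites, against 5.39% on the right, and early plus mid-early sequence reaches 51.0% at 350 to 400 kb, against 31.8%.

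The 96 sites in early or mid-early sequence had windows of another make-up, as their choice by class implies. Their windows were 90.1 ± 15.2% early or mid-early and 0.303 ± 1.71% late, and late sequence was present in 4 of 96 windows. It was present in 11 of the 30 windows of mid-late sites. The 34 mid-early sites had 16.7 ± 15.6% mid-late sequence around them. Some sites on both sides of the choice lay close to a class border along the chromosome. Chr1 no. 6 (228328080 to 228328087) and chr20 no. 2 (42087117 to 42087124) lay 5.82 kb each inside mid-late sequence, and chr16 no. 1 lay 11.0 kb inside it. Among sites not taken, the mid-early sites 1628453 to 1628460 on chromosome 17 and 149862465 to 149862472 on chromosome X lay 2.96 and 4.57 kb from mid-late sequence.

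The shape of the timing profile at each site was read from joined domains, formed by joining neighbouring intervals of a class. A site was at a local minimum where both flanking domains were earlier, at a local maximum where both were later, and on a ramp where 1 was earlier and the other later. Local minima held 24 of the 33 sites, ramps 7 and local maxima 2. All 3 late sites were at minima, which follows from their class, since no class is later. Of the 30 mid-late sites, 21 (70.0%, exact Clopper-Pearson interval 50.6 to 85.3%) were at minima. Minima made up 38.6% of all mid-late sequence, and 40.1% when each chromosome was weighted by its number of mid-late sites. Ramps held 23.3% of mid-late sites (interval 9.93 to 42.3%) against 37.7% of mid-late sequence, and maxima 6.67% (interval 0.818 to 22.1%) against 23.5%.

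That share depended on short domains. When domains under 50 kb were absorbed into their longer neighbour, 15 of the 28 sites still in mid-late sequence (53.6%) were at minima, against 36.5% of mid-late sequence. When domains under 100 kb were absorbed it was 11 of 27 (40.7%), against 36.1%. With the mean rank of the flanks (50 to 500 kb on each side) set against the central 50 kb on each side, 16 of 30 mid-late sites (53.3%) were at minima, against 30.0% of mid-late sequence. Of the 21 mid-late minima, 13 had a flanking domain under 50 kb on at least 1 side, and 8 had both flanks of 50 kb or more. These counts were not measured over all mid-late minima.

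**Figure D3:**
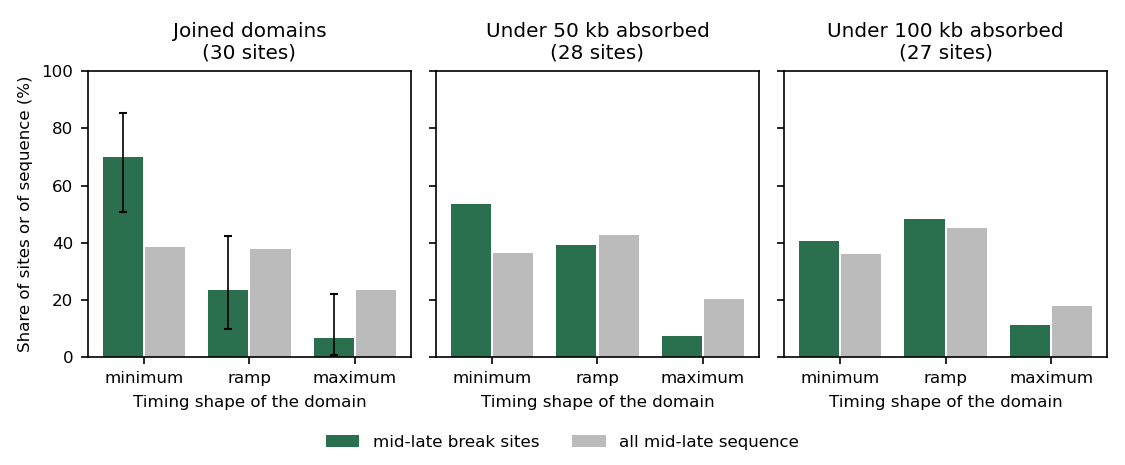
Share (%, y axis) of mid-late break sites (green) and of all mid-late sequence (grey) at timing minima, ramps and maxima (x axis), for joined domains and after domains under 50 or 100 kb were absorbed. Error bars, on the left panel, are exact Clopper-Pearson intervals. The green bar for minima is 70.0%, 53.6% and 40.7% from left to right, beside grey bars of 38.6, 36.5 and 36.1%.

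Most mid-late minima adjoined mid-early domains on both sides, many of them short. In 19 of the 21 both flanking domains were mid-early. By definition a mid-late minimum can adjoin only early or mid-early domains. The same count over all mid-late minima was not measured, so whether it is particular to the sites is not known. That does not mean mid-early surroundings: the window of chr1 no. 1 (14076181 to 14076188) was 85.2% mid-late, with flanks of 31.4 and 52.4 kb. In the other 2, chr17 no. 1 and chr11 no. 2 (120196322 to 120196329), 1 flank was early and the other mid-early. The mid-late domain of chr11 no. 2 was 453 kb long, with an early domain of 153 kb starting 17.0 kb to the right of the site and a mid-early domain of 32.4 kb on the far left. The longest mid-late domain was that of chr3 no. 1 (178866537 to 178866544), 898 kb between mid-early domains of 209 and 20.6 kb, and 97.9% of its window was mid-late. ChrX no. 1 (37430899 to 37430906) lay in a mid-late domain of 483 kb, with mid-early domains of 51.6 kb on the left and 133 kb on the right.

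The length of the mid-late domains was close to that of mid-late sequence in general. Mid-late domains at the sites ranged from 37.0 to 898 kb with a median of 265 kb, and a base of mid-late sequence lay in a domain with a median length of 284 kb. Domains under 100 kb held 4 of the 30 sites, domains of 100 to 500 kb held 22, and domains of 500 kb or more held 4. Sites lay a median of 58.6 kb inside the nearer edge of their domain, against 57.8 kb for all mid-late sequence.

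Both local maxima were mid-late domains between late ones, as the definition requires. Their windows were mostly mid-late, 80.0% at chr1 no. 2 and 73.3% at chr11 no. 1, with 20.0% and 26.7% late sequence. Chr1 no. 2 lay in a mid-late domain of 182 kb, with late domains of 104 kb on the left and 29.9 kb on the right. Chr11 no. 1 lay in a mid-late domain of 622 kb between a late domain of 3401 kb and one of 38.9 kb. Neither window held any early or mid-early sequence.

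Each of the 7 ramp sites had a late flanking domain on 1 side, as the definition requires of a mid-late ramp. At chr7 no. 1 (107643770 to 107643777) that domain, of 20.2 kb, began 636 kb away. The window of chr7 no. 1 thus held no late sequence. The ramp sites are named here after their values were seen, except chr4 no. 1 (15004123 to 15004130), which is named by its distance from mid-early sequence. In all 7 the half-window on the side of the earlier flank had the lower mean rank, 2.61 ± 0.34 on that side and 3.40 ± 0.26 on the other (SD over 7 sites), as the definition of a ramp favours. The steepest was chr6 no. 4 (135819347 to 135819354), with a mean rank of 2.07 to the left and 3.56 to the right. Chr4 no. 4 (178363575 to 178363582) and chr18 no. 1 (29598722 to 29598729) bordered late domains of 2968 and 1853 kb. The earlier flank of chr18 no. 1 was an early domain of 52.0 kb, and at the other 6 it was mid-early. At 21 mid-late minima the sides were more alike, as the definitions favour. Mean ranks were 2.12 ± 0.45 on the earlier side and 2.62 ± 0.42 on the later side. At minima the earlier side is the side with the lower mean rank, not a side set by its flank.

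The nearest mid-early border was 82.2 kb from the median later-replicating site, with an interval for the median of 47.3 to 175 kb. The nearest was 5.82 kb away and the farthest 5173 kb. For the 30 mid-late sites the median was 70.3 kb, with quartiles of 38.9 and 174 kb, against a median of 146 kb and quartiles of 46.2 and 394 kb for all mid-late sequence. Within 100 kb of a mid-early border lay 18 mid-late sites (60.0%, interval 40.6 to 77.3%), against 41.2% of mid-late sequence. Within 200 kb the count was 26 (86.7%, interval 69.3 to 96.2%), against 57.8%. At 20 of 30 sites the distance was below the median of mid-late sequence. The border lay to the left of 15 sites and to the right of 18, and at 2 of the 33 sites an early domain was nearer than a mid-early one.

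Within 100 kb this closeness depended on short mid-early domains, and within 200 kb it was smaller without them. When mid-early domains under 50 kb were not counted as a border, 10 of 30 mid-late sites (33.3%) had mid-early sequence within 100 kb, against 30.9% of mid-late sequence. Within 200 kb it was 18 sites (60.0%), against 46.9%. Within 500 kb the shares were 86.7% of sites and 72.8% of mid-late sequence. The median distance of mid-late sites was then 146 kb, still below the 225 kb of all mid-late sequence.

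The sites nearest to mid-early sequence were in short mid-late domains or near the end of longer ones, as such closeness implies. Chr1 no. 6 lay 5.82 kb from a mid-early domain of 27.2 kb on its right, and 53.4 kb from early sequence. Chr20 no. 2 lay 5.82 kb from a mid-early domain of 74.8 kb on its left. Chr16 no. 1 lay 11.0 kb and chr4 no. 2 lay 12.5 kb from the nearest mid-early base. Chr6 no. 1 (16129038 to 16129045) was 13.9 kb from mid-early sequence although its mid-late domain was 362 kb long. The farthest were chr1 no. 4 at 5173 kb, chr13 no. 1 at 1681 kb and chr11 no. 1 at 1072 kb. They were followed by chr1 no. 2 at 535 kb and chr4 no. 1 at 472 kb. Of these 5, 2 were late sites, 2 were mid-late maxima and 1 was on a ramp. Neither the late sites nor the maxima adjoined a mid-early domain, so large distances are favoured there. The third late site, chr15 no. 1, was 422 kb from mid-early sequence.

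Distances to late sequence ran the other way. The nearest late base was 625 kb from the median mid-late site, with quartiles of 276 and 2247 kb, against a median of 255 kb and quartiles of 72.4 and 783 kb for all mid-late sequence. None of the 30 mid-late sites lay within 50 kb of late sequence (0%, interval 0 to 11.6%), against 19.3% of mid-late sequence. Within 100 kb there were 2 sites (6.67%, interval 0.818 to 22.1%), against 30.5%. Within 200 kb there were 5 (16.7%, interval 5.64 to 34.7%), against 44.5%. In all 3 cases the share of mid-late sequence lay above the upper bound of the interval. The 3 counts are nested counts of the same sites, and the intervals cover counting error only. The chromosome-weighted shares were 19.5, 30.7 and 44.1%. When late domains under 50 kb were not counted, 0, 1 and 4 sites lay within these distances, against 15.3, 24.6 and 37.2% of mid-late sequence. No test of the difference was made.

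**Figure D4:**
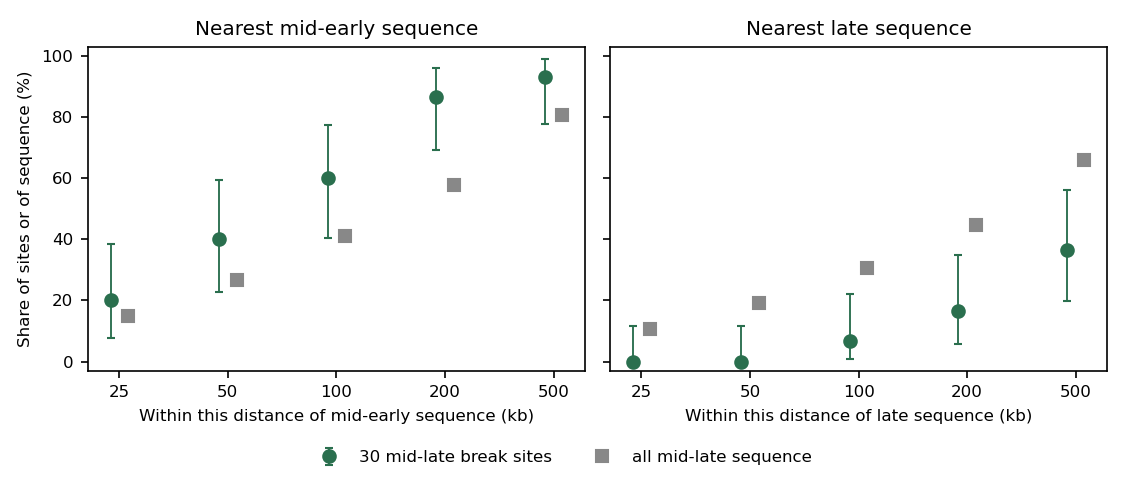
Share (%, y axis) of the 30 mid-late break sites (green circles, bars are exact Clopper-Pearson intervals) and of all mid-late sequence (grey squares) within 25 to 500 kb (x axis, not to scale) of mid-early (left) or late (right) sequence. Sites lie above the squares for mid-early sequence (60.0% against 41.2% within 100 kb) and below them for late sequence (6.67% against 30.5%).

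NS-seq peaks were absent from most of the windows. Of 33 windows, 21 held no peak and 12 held 56 peaks in all, 1.70 per Mb of window with an SD over sites of 3.27. The median window held 0 peaks and the highest count was 13. The 5 windows with the most peaks held 44 of the 56 (78.6%). The lowest score in the list was 10.0, and places with weaker signal are not in it. The 30 mid-late sites alone had 1.83 peaks per Mb of window. Over all mid-late sequence a window of the same width held 0.986 peaks per Mb on average. From the class densities of the whole genome, 41.3 peaks would lie in 33 windows of this timing make-up, and the 56 observed were 1.36 times that. For the windows of the 96 other sites the same ratio was 1.92.

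All 5 windows rich in peaks were more than 50% early or mid-early. Chr16 no. 1 had 13 peaks, chr1 no. 6, chr16 no. 2 (88522374 to 88522381) and chrX no. 4 (153060539 to 153060546) had 8 each, and chr17 no. 1 had 7. The other 5 windows above 50% early or mid-early held 0 peaks each. They include chr4 no. 2, the window with the most earlier sequence, whose nearest peak lay 3708 kb away. Of the 9 windows under 10% early or mid-early, only that of the late site chr15 no. 1 held a peak.

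The peaks in these windows lay mostly in mid-early sequence. Mid-early sequence held 29 of the 56 peaks (51.8%), mid-late sequence 19, early sequence 6 and late sequence 2. Per Mb within the windows this was 3.22 in mid-early sequence, 1.15 in mid-late, 1.99 in early and 0.451 in late. Genome-wide the densities were 1.61, 1.20, 1.83 and 0.325. The density in the windows was thus above the genome-wide one in mid-early sequence by the widest margin, and 9 of those 29 peaks came from 1 site, chr16 no. 1. The scores of these peaks, the authors' value on a scale not stated, had a median of 11.9 and ran from 10.0 to 19.1, beside a median of 11.8 for all 3733 nuclear peaks.

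By distance, the 33 sites had 7 peaks in the first 50 kb (from 5 sites), 8 from 50 to 100 kb, 6 from 100 to 150 kb and 4 from 150 to 200 kb. The farther steps held 6, 6, 4, 8, 1 and 6 peaks. The class densities gave 3.84 peaks for the first step and between 4.07 and 4.26 for the others. The count in the first 100 kb was thus 15, beside 7.99 from class densities, and no step held more than 8. With so few peaks from so few sites, no order among the steps can be read.

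No later-replicating site had a peak within 10 kb (0 of 33, interval 0 to 10.6%), and 9 of the 96 earlier-replicating sites had one (9.38%, interval 4.38 to 17.1%). Few positions of any class had a peak that near: 2.08% of mid-late, 0.596% of late, 3.32% of early and 2.84% of mid-early sequence. A count of 0 among 33 sites therefore says little. Within 50 kb there were 5 of 33 (15.2%, interval 5.11 to 31.9%) and 25 of 96 (26.0%, interval 17.6 to 36.0%). Within 500 kb there were 12 of 33 (36.4%, interval 20.4 to 54.9%) and 58 of 96 (60.4%, interval 49.9 to 70.3%). The classes themselves differ in this. A peak lay within 50 kb of 12.4% of early and 9.76% of mid-early sequence, and within 500 kb of 53.4 and 34.5%. The intervals of both groups overlap at each distance, which does not show that the shares are alike, and the difference was not tested. For mid-late sites alone the share was 16.7% within 50 kb and 26.7% within 100 kb (interval 12.3 to 45.9%), against 7.36 and 11.7% of all mid-late sequence. It was 36.7% within 500 kb, against 29.9%.

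**Figure D5:**
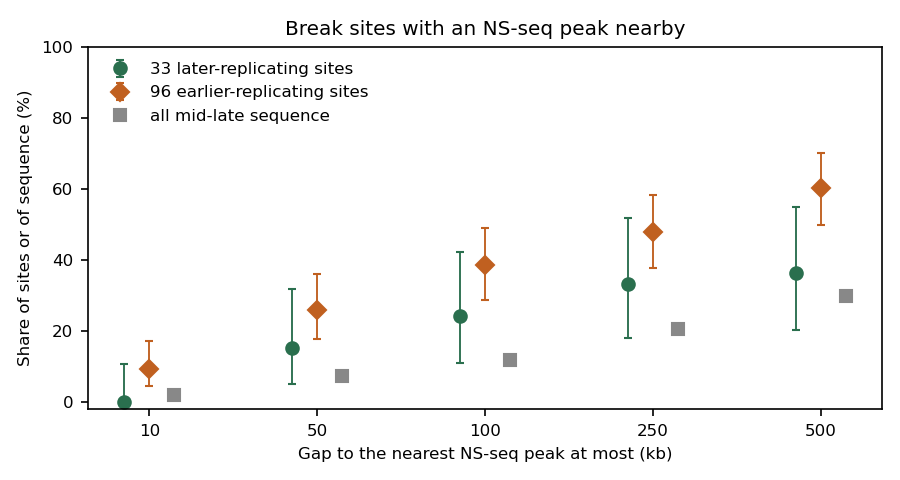
Share (%, y axis) of the 33 later-replicating sites (green circles), the 96 earlier-replicating sites (orange diamonds) and all mid-late sequence (grey squares) whose gap to the nearest NS-seq peak is at most 10 to 500 kb (x axis, not to scale). The 33 sites include 3 late ones, and the squares cover mid-late sequence only. Bars are exact Clopper-Pearson intervals. Later-replicating sites lie at 0% within 10 kb and at 36.4% within 500 kb, and earlier-replicating sites at 9.38 and 60.4%. The intervals overlap, which does not show that the shares are alike.

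The median gap from a later-replicating site to the nearest peak was 692 kb, with an interval for the median of 197 to 3274 kb, and it exceeded 1000 kb at 15 sites. For the 30 mid-late sites the median was 666 kb (interval 197 to 2776 kb), against 1339 kb for all mid-late sequence. For all late sequence it was 2907 kb. The smallest gap was 16.4 kb, at chr1 no. 6, to a mid-early peak of score 10.9. ChrX no. 4 had a gap of 21.4 kb and chr17 no. 1 one of 21.6 kb, both to mid-late peaks. Chr1 no. 1 had a gap of 30.6 kb and chr16 no. 1 one of 47.8 kb, again to mid-late peaks. All 5 of these sites lay at local minima. The largest gap was 12010 kb, at a ramp site on chromosome 6 (20212320 to 20212327), named after its value was seen.

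Counts of peaks were also set against the distance to mid-early sequence. Of the 18 later-replicating sites within 100 kb of a mid-early border, 10 had a peak within 500 kb and 7 had one within 100 kb. Of the 15 sites beyond 100 kb, 2 and 1 did. Median gaps were 241 kb at the sites within 100 kb of a border and 3628 kb at those beyond it. By shape, 11 of 24 sites at minima, 1 of 7 on ramps and 0 of 2 at maxima had a peak within 500 kb. The 15 sites beyond 100 kb and the 24 minima both include the 3 late sites. Of all mid-late sequence, 29.9% had a peak within 500 kb and 11.7% within 100 kb. Genome-wide, mid-early sequence held 1.61 peaks per Mb, mid-late 1.20 and late 0.325. The same splits of all sequence were not measured, so whether the counts are particular to the sites is not known. These counts describe 1 peak list and 1 timing list, and were not tested.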

How the data were processed

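Timing intervals, break sites and NS-seq peaks were read from 6 region lists deposited by the authors on hg19. The submitters' processing notes name hg19 and MACS2, with no version, role or parameters. No source used here states how timing classes were divided, how peaks were merged or how MRE11 overlap was defined; the aligner is not given either. The score per NS-seq peak is the authors' deposited value on a scale not stated. The timing and break lists hold other deposited values only as positions. Read depth is unknown.

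A site was placed by its midpoint, and a peak by its midpoint or, for gaps, its edge. Neighbouring intervals of a class were joined. Shares were taken in 50 kb steps to 500 kb, and the same measures were taken at every 100 bp of a class. The functions were tested on simulated data. Intervals are 95% Clopper-Pearson or, for medians, binomial order-statistic intervals (SciPy 1.17.1, NumPy 2.4.6, Python 3.11.15, figures with Matplotlib 3.10.9).

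Regions named were the late sites, the 5 nearest to and the 5 farthest from a mid-early border, the 5 with the nearest peak, the 5 with the most peaks, both maxima, the 5 minima with the longest domains, and the 3 windows with most and the 4 tied with least early plus mid-early sequence. Members and measures were chosen with earlier results of these data known. Bases and genes at the sites were not analysed here. No chance test was run, and sites are not replicates.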

Additional observations from a re-analysis of the deposited data

How the results depend on the processing

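Across 6 results on the 33 sites, 135 alternatives were computed, and 131 stayed within the interval of the reported value. The 4 that moved were the share of sites at a local minimum, 72.7% as reported, 45.5% with domains under 100 kb absorbed and 51.5% with flank means set against the centre. The median distance to the nearest early domain was 497 kb, in place of 82.2 kb to the nearest mid-early one, and the first step with a mean early plus mid-early share of 25% began at 100 kb with 100 kb steps, in place of 50 kb. The cause was not tested for the flank means. The other changes follow from what was absorbed, measured or widened. Not counting mid-early domains under 50 kb gave a median of 175 kb, at the upper bound of the reported interval of 47.3 to 175 kb. Other values moved by about 1.5 times or more inside wide intervals. The median early plus mid-early share was 23.6% with 250 kb on each side, against 37.3% with 500 kb. With peaks at or above the median score, 9.09% of sites had one within 50 kb, against 15.2% with all peaks. Within 1000 kb 54.5% of sites had a peak, against 36.4% within 500 kb. Leaving out each chromosome in turn moved none of the 6 results past its interval. Minima then ranged from 69.0 to 75.9% and the median border distance from 79.4 to 94.4 kb. The share of sites with a peak within 500 kb ranged from 32.3 to 41.4%. Keeping 1 site per overlapping window and requiring 5 kb of later sequence on each side left the same 33 sites. Those alternatives could not move, and keeping autosomes only repeated leaving out chromosome X, yet all count among the 131. The 96 alternatives that left out a chromosome mostly dropped few of the 33 sites. The tally of 131 therefore says little about robustness. The weighting of mid-late sequence by chromosome, and the shares of mid-late sequence set beside the alternatives for shape and borders, were added after the data were seen. No paired analysis was possible because the lists do not separate samples and carry no replicate numbers. The number of listed peaks limits all counts near the sites.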
